A study of Mus musculus with 18 samples.

Results

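The 6 genes Lif, Lifr, Il6st, Jak1, Stat3 and Socs3 were followed on all 18 Affymetrix arrays of a mouse study in which cells were reprogrammed into induced pluripotent stem cells (iPSC). They were taken as every probe set whose annotation names the gene, which gave 16 probe sets of the 40508 on the array and 6 genes of the 17903 that have a probe set of their own. Lif had 2 probe sets, Lifr 3, Il6st 3, Jak1 3, Stat3 4 and Socs3 1, and none of them was shared with another gene. Each gene is described by the probe set of its own that was brightest on average, called the shown probe set, with the others beside it.

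LIF is a cytokine that binds the LIF receptor, Lifr, which then pairs with gp130, the product of Il6st. The pair activates the kinase Jak1, which phosphorylates the transcription factor Stat3, and Stat3 in turn switches on Socs3, an inhibitor that acts back on gp130 and the kinase. Mouse embryonic stem cells are known to depend on this pathway for self-renewal when grown with LIF, while gp130 also serves interleukin 6, oncostatin M and other ligands in many other cells.

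The factor sets were OCK (Oct4, c-Myc and Klf4) and OSK (Oct4, Sox2 and Klf4), and the genotypes were Tcf3 knockout (ko) and wild type (wt). Tcf3 is the older name of Tcf7l1, a DNA-binding repressor that beta-catenin can bind. The 5 established iPSC clones were 2 OCK ko clones, 2 OSK ko clones and 1 OSK wt clone. A partially reprogrammed OCK clone of wt genotype, called the partial clone here, was taken 48 h after an siRNA against Tcf3 (siTcf3, siRNAs A and B, 1 array each) or after a control siRNA (siCtrl, 1 array). OCK reprogramming cultures of ko and of wt cells were sampled 5 times, on days 11, 15, 19, 22 and 26, and each genotype gave 1 array a day. No OCK wt iPSC clone, no OSK culture and no second partial clone was among these samples. The starting cells, the medium, any feeder layer and the way the knockout was made are not given in the labels used here. The labels do not say that days or arrays are separate experiments, and a p-value here measures no more than how these samples spread.

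Values are log2 signals as deposited, with a floor at 5.64, the log2 of 50, on which 44.9% to 46.6% of the values of an array lay; a value at the floor is an upper limit. The targeted gene, Tcf7l1 (1436207_at), had 9.37 to 9.56 in the 4 iPSC ko clones, against 10.68 in the OSK wt clone. In the cultures it had 8.10 to 9.48 in ko and 9.06 to 9.90 in wt, ranges that overlap over the days, though ko was below wt on each day. The partial clone had 8.77 and 8.80 with siTcf3, against 9.93 with siCtrl. A second probe set, 1450117_at, was also lower in ko than in wt cultures on each day. It had 8.67 to 8.83 in iPSC ko clones, against 10.07 in the OSK wt clone. In the partial clone it had 7.56 and 7.79 with siTcf3, against 9.86 with siCtrl. It is not known here whether either probe set lies in the deleted part. Pluripotency markers (8 of 8 represented) averaged 12.2 to 12.5 in iPSC clones, 7.48 to 7.70 in the partial clone and 5.93 to 9.20 in cultures. They set the iPSC clones apart as labelled, but 0 of 8 passed between the partial clone and cultures. Fibroblast markers (7 of 8 represented) averaged 6.57 to 7.92, 9.15 to 9.61 and 11.9 to 13.2 in the same order. Macrophage markers (7 of 8 listed names, the other being Emr1, an older name of Adgre1) averaged 5.89 to 6.11, 6.03 to 6.16 and 6.55 to 8.49. Adgre1 and Ptprc were at the floor on every iPSC and partial clone array and on 6 and 8 of the 10 cultures. Of these markers Cd68 had 7.22 to 8.27 in iPSC clones, 5.64 to 5.90 in the partial clone, 7.20 to 8.98 in ko cultures and 6.97 to 7.65 in wt cultures. Neural markers (5 of 5) averaged 6.70 to 7.57, 6.12 to 6.19 and 5.93 to 10.1, and the wt culture of day 26 stood apart from the other cultures as the highest of these, at 10.1.

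Promoter sequences of 4 members are shown because Il6st, Jak1 and Stat3 were lower in iPSC clones than in cultures, while Socs3 did not pass in that comparison. They run 5′ to 3′ on the strand of the gene from 250 bases before to 50 after an annotated start, from RefSeq on GRCm38.p6, and 6 of 6 members matched, with 7 starts. The Il6st window lies at chr13:112463820-112464119 on the plus strand. The windows of Jak1, at chr4:101265174-101265473, Stat3, at chr11:100939491-100939790, and Socs3, at chr11:117969317-117969616, lie on the minus strand. Capitals mark matches on either strand to 3 motifs. The first is TTCNNNGAA, the palindrome that Stat factors bind. The second is the GC box, spelled GGGCGG here. The third is the box with the letters CCAAT, named for them.
Socs3 promoter: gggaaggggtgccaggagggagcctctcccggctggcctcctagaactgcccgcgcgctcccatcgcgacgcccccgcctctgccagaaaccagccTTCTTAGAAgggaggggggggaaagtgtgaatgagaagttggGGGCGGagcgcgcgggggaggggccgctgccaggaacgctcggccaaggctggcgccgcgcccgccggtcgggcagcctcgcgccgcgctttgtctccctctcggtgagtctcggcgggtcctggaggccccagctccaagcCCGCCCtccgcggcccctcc
Il6st promoter: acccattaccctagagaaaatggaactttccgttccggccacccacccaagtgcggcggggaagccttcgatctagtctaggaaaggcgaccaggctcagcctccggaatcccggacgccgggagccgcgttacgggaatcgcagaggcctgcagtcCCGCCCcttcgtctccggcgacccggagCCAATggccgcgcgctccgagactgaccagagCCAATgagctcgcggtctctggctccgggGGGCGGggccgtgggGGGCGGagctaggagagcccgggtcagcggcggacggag
Jak1 promoter: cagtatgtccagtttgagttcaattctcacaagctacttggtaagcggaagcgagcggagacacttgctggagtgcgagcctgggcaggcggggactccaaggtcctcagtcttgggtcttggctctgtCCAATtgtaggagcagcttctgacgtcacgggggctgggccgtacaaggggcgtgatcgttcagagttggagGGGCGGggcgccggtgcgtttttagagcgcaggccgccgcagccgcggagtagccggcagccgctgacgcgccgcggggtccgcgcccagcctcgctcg
Stat3 promoter: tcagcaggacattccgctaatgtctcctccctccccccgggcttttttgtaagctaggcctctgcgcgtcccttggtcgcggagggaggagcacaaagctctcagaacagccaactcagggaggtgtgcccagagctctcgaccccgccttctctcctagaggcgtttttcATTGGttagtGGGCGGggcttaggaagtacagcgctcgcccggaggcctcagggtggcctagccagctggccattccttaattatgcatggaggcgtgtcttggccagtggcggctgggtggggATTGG
TTCNNNGAA was found in the Socs3 window alone among the 7 member windows, and in 8.3% of the 32851 mouse promoter windows of the same length. It begins at position -154 from the annotated start used for that window. That start lies inside the annotated Socs3 gene, whose 5′ end is at 117970336. GGGCGG occurred in 3 places in the Il6st window, 1 in Jak1, 1 in Stat3 and 2 in Socs3, and in 35.7% of all windows. CCAAT occurred in 2 places in Il6st, 1 in Jak1 and 2 in Stat3, and in 37.4% of all windows. CTTTGAA and CTTTGTT, forms of the site that Tcf and Lef factors bind, were in none of the 7 member windows and in 5.14% and 5.85% of all. The motifs do not overlap one another in these windows, and a match or its absence says nothing more than that.

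Il6st, Jak1 and Stat3 were lower in the 5 iPSC clones than in the 10 cultures, Lif and Lifr were lower by less, and Socs3 did not pass the test. By probe set, 12 of the 15 members tested passed, 11 of them lower, in limma with Benjamini-Hochberg adjustment over all probe sets. The background is wide in this comparison: 62.4% of all probe sets tested passed and 26.7% passed as lower. The median log2 difference was -0.68 over the members and 0.04 over all probe sets tested. The second Lif probe set, 1450160_at, was at the floor on all 18 arrays and was not tested.

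**Figure D1:**
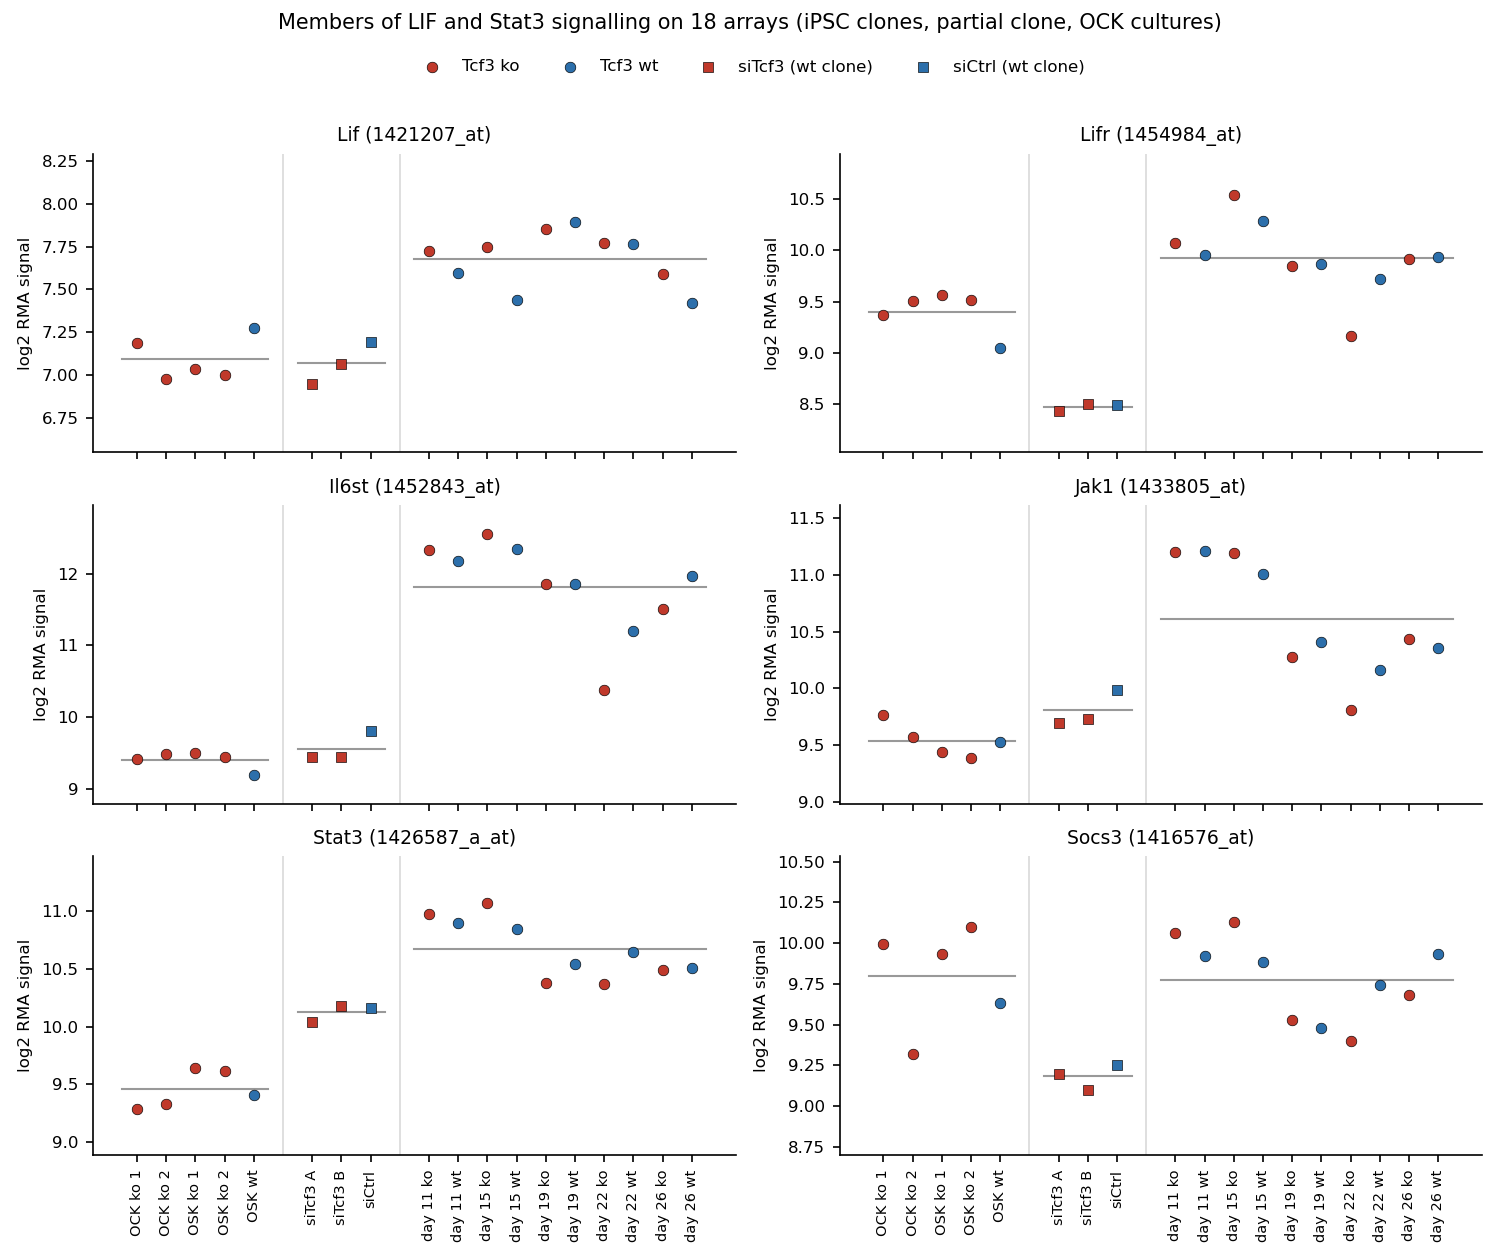
Log2 RMA signal (vertical axis, own scale for each gene, not starting at 0) of the shown probe set of each member on each of the 18 arrays (horizontal axis: iPSC clones, partial clone, cultures by day). Points are single arrays, circles for genotypes and squares for siRNA treatments of the wt partial clone, and grey lines are the means of each state. Il6st lies between 9.19 and 9.5 in iPSC clones and between 10.38 and 12.55 in cultures.

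Lif, the ligand, was the dimmest member by shown probe set, though above the floor and the array medians (5.853 to 5.945) on every array. Its probe set 1421207_at had 7.19 and 6.98 in the OCK ko clones, 7.04 and 7.0 in the OSK ko clones and 7.27 in the OSK wt clone. The partial clone had 6.95 and 7.07 with siTcf3 and 7.19 with siCtrl, and the 10 cultures had 7.42 at the lowest, 7.74 at the median and 7.89 at the highest. Every culture was above every clone array. The iPSC clones averaged 7.10 ± 0.13 (SD, n = 5) and the cultures 7.68 ± 0.16 (SD, n = 10), a log2 difference of -0.58 ± 0.09 (SE) that passed (limma, adjusted p = 9.77e-06).

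Lifr, the ligand-binding receptor, had 9.37 and 9.5 in the OCK ko clones, 9.56 and 9.51 in the OSK ko clones and 9.05 in the OSK wt clone for probe set 1454984_at. It was lowest in the partial clone, with 8.43 and 8.5 with siTcf3 and 8.5 with siCtrl. The cultures ran from 9.17 through a median of 9.92 to 10.54, and overlapped the iPSC clones through the ko culture of day 22. The iPSC clones were 1.44-fold lower than the cultures (log2 difference -0.53 ± 0.15, limma adjusted p = 0.00612). That call was lost among ko arrays alone (-0.42, adjusted p = 0.155), against the cultures of days 22 and 26 alone (-0.28, adjusted p = 0.126) and with the mean of the gene's probe sets (-0.19, adjusted p = 0.162). Lifr 1425107_a_at was also lower (-0.43 ± 0.16, adjusted p = 0.0282), while Lifr 1450207_at was higher in iPSC clones (0.38 ± 0.11, adjusted p = 0.00526). Both lay near the floor, with medians of 5.73 and 6.11 in iPSC clones and 6.10 and 5.70 in cultures, and the Pearson correlation of 1450207_at with the shown probe set over the 18 arrays was -0.09.

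Il6st, which encodes the shared signal-transducing receptor gp130, differed more than any other member by its shown probe set, 1452843_at. The OCK ko clones had 9.41 and 9.49, the OSK ko clones 9.5 and 9.45, and the OSK wt clone 9.19. The partial clone had 9.44 with each siTcf3 and 9.80 with siCtrl, and the cultures had 10.38, 11.91 and 12.55 as lowest, median and highest. All 10 cultures were above all 8 clone arrays. The iPSC clones averaged 9.41 ± 0.13 (SD, n = 5) and the cultures 11.82 ± 0.65 (SD, n = 10), which is 5.31-fold lower in iPSC clones (log2 difference -2.41 ± 0.26, limma adjusted p = 1.78e-07). A second probe set, 1437303_at, gave -2.35 ± 0.28, and another near the floor, 1421239_at, gave -0.10 ± 0.13 and did not pass.

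Jak1, the kinase bound to the receptors, had 9.77 and 9.57 in the OCK ko clones, 9.44 and 9.38 in the OSK ko clones and 9.53 in the OSK wt clone for 1433805_at. The partial clone had 9.70 and 9.73 with siTcf3 and 9.99 with siCtrl. The cultures ran from 9.81 through 10.42 to 11.21, all above the iPSC clones. The difference was -1.07 ± 0.21 on the log2 scale (limma, adjusted p = 0.000169), and 1433803_at, whose pattern followed that probe set with r = 0.99 over 18 arrays, gave -1.18 ± 0.21. Probe set 1433804_at set the iPSC clones much further apart, with 6.13 and 5.64 in OCK ko clones, 5.65 and 5.87 in OSK ko clones and 5.87 in the OSK wt clone. Of these, 1 array was at the floor. The partial clone had 7.36 and 7.63 with siTcf3 and 8.35 with siCtrl, and the cultures ran from 7.74 to 9.0, so only the iPSC clones lay near the floor. It was at least 5.7-fold lower in iPSC clones than in cultures, a lower limit because of the array at the floor (log2 difference -2.51 ± 0.19, limma adjusted p = 1.72e-09). The Jak1 probe sets thus gave differences of unlike size between the same arrays, and where 1433804_at lies on the gene is not given here.

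Stat3, the transcription factor of the pathway, had 9.29 and 9.33 in the OCK ko clones, 9.64 and 9.61 in the OSK ko clones and 9.41 in the OSK wt clone for 1426587_a_at. The partial clone lay between the other states, at 10.04 and 10.18 with siTcf3 and 10.16 with siCtrl. The cultures had 10.37, 10.59 and 11.07 as lowest, median and highest, and the 3 states did not overlap by this probe set. By 1460700_at the partial clone (10.11 to 10.22) overlapped the cultures (10.15 to 10.93). By 1459961_a_at it did too (6.01 to 6.46, against 6.34 to 7.39). By 1426587_a_at Stat3 was 2.33-fold lower in iPSC clones than in cultures (log2 difference -1.22 ± 0.12, limma adjusted p = 4.23e-08). Probe sets 1460700_at (-1.12 ± 0.13) and 1459961_a_at (-0.68 ± 0.15) passed in the same direction, and 1424272_at, near the floor, did not (-0.18 ± 0.11).

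Socs3, the feedback inhibitor, had 9.997 and 9.32 in the OCK ko clones, 9.93 and 10.10 in the OSK ko clones and 9.63 in the OSK wt clone. The partial clone had 9.20 and 9.10 with siTcf3 and 9.25 with siCtrl, below every other array of this probe set. The cultures ran from 9.40 through 9.81 to 10.13, nearly the same range as the iPSC clones. The log2 difference between iPSC clones and cultures was 0.02 ± 0.14, with a 95% interval of -0.27 to 0.30 (limma, adjusted p = 0.927).

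Fibroblast markers moved with these differences: 7 of 7 represented were lower in iPSC clones than in cultures, with a median log2 difference of -5.33, and Postn was at the floor on 4 of 5 iPSC arrays. All 8 pluripotency markers were higher, with a median of 5.41. In bulk RNA, fewer cells of a type and less RNA per cell cannot be told apart, and the part of cell mixture in the members' differences was not tested. The factor set differs as well, since 3 of the 5 iPSC clones carry OSK and all cultures OCK. The labels do not say whether clones and cultures were handled together, so state and handling cannot be told apart.

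**Figure D2:**
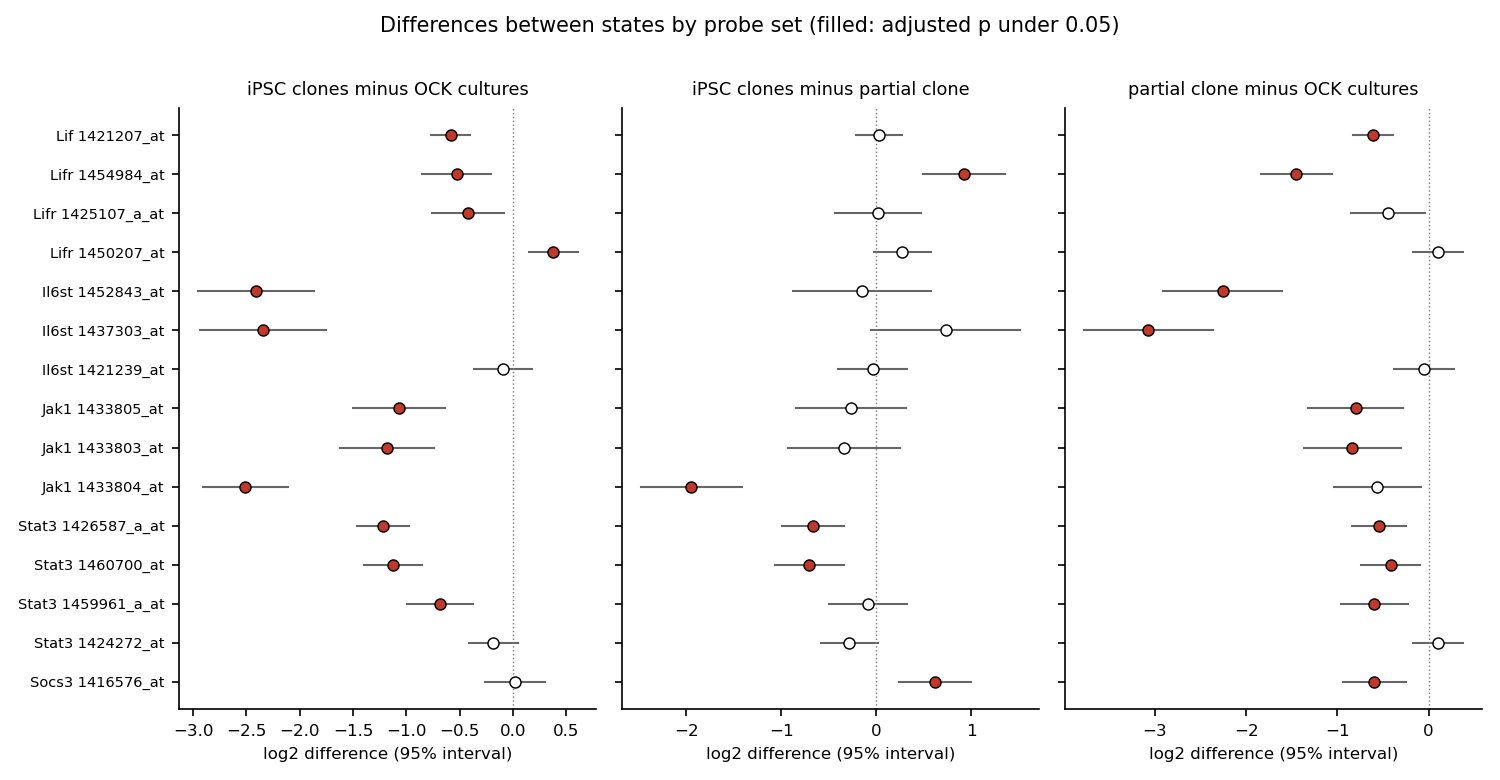
Log2 difference between states (horizontal axis) for each of the 15 member probe sets tested (vertical axis), with its 95% interval from limma; filled points have an adjusted p under 0.05. Il6st and Jak1 1433804_at lie farthest left in the comparison of iPSC clones with cultures, at -2.41 and -2.51, and Lifr and Socs3 lie right of 0 in that of iPSC clones with the partial clone, at 0.92 and 0.61.

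The partial clone had less Lifr and Socs3 than the iPSC clones and more Stat3. Between iPSC clones and the 3 partial clone arrays, 5 of 15 members passed, against 47% of all probe sets tested. Lifr was 1.89-fold higher in iPSC clones (log2 difference 0.92 ± 0.21, limma adjusted p = 0.00115) and Socs3 1.53-fold higher (0.61 ± 0.18, adjusted p = 0.0088). Stat3 was 1.59-fold lower in iPSC clones (-0.67 ± 0.16, adjusted p = 0.0016), and its probe set 1460700_at gave -0.71 ± 0.17. Jak1 1433804_at was at least 3.86-fold lower, again with 1 iPSC array at the floor (-1.95 ± 0.25, adjusted p = 4.17e-06), while Jak1 1433805_at did not pass (-0.27 ± 0.27, adjusted p = 0.47). With the mean of the Jak1 probe sets the gene passed, at -0.85 and an adjusted p of 0.00969. Il6st did not pass with either main probe set, and the values differed in sign: -0.15 ± 0.35 for 1452843_at and 0.73 ± 0.37 for 1437303_at. The 3 arrays are 1 clone, so these p-values do not cover differences between partial clones, and 4 of the 5 iPSC clones are ko while the partial clone is wt.

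Against the cultures, the partial clone was lower for all 6 genes by their shown probe sets, and 10 of 15 probe sets passed, each of them lower. The background was 40.4% of all probe sets tested, and 17.5% passed as lower. Il6st was 4.78-fold lower in the partial clone than in cultures by 1452843_at (log2 difference -2.26 ± 0.31) and 8.43-fold lower by 1437303_at (-3.07 ± 0.34). By 1437303_at the partial clone had 6.75 and 6.99 with siTcf3 and 7.64 with siCtrl, below the lowest culture at 9.27. Lifr was 2.73-fold lower (-1.45 ± 0.19), Lif 1.53-fold lower (-0.61 ± 0.10), Socs3 1.51-fold lower (-0.59 ± 0.16) and Stat3 1.46-fold lower (-0.55 ± 0.14). The Jak1 difference of -0.80 ± 0.25 (limma, adjusted p = 0.0153) lost its call without the siTcf3 A array (-0.74, adjusted p = 0.0707), without the siTcf3 B array (-0.76, adjusted p = 0.0652) and against the cultures of days 22 and 26 alone (-0.39, adjusted p = 0.0517). Without either siTcf3 array 6 of 15 members passed. Fibroblast markers, 7 of 7, were lower in the partial clone too, by a median of -2.89, and their part in these differences was not tested. Comparisons of the 3 states share arrays, so they are not independent of each other.

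**Figure D3:**
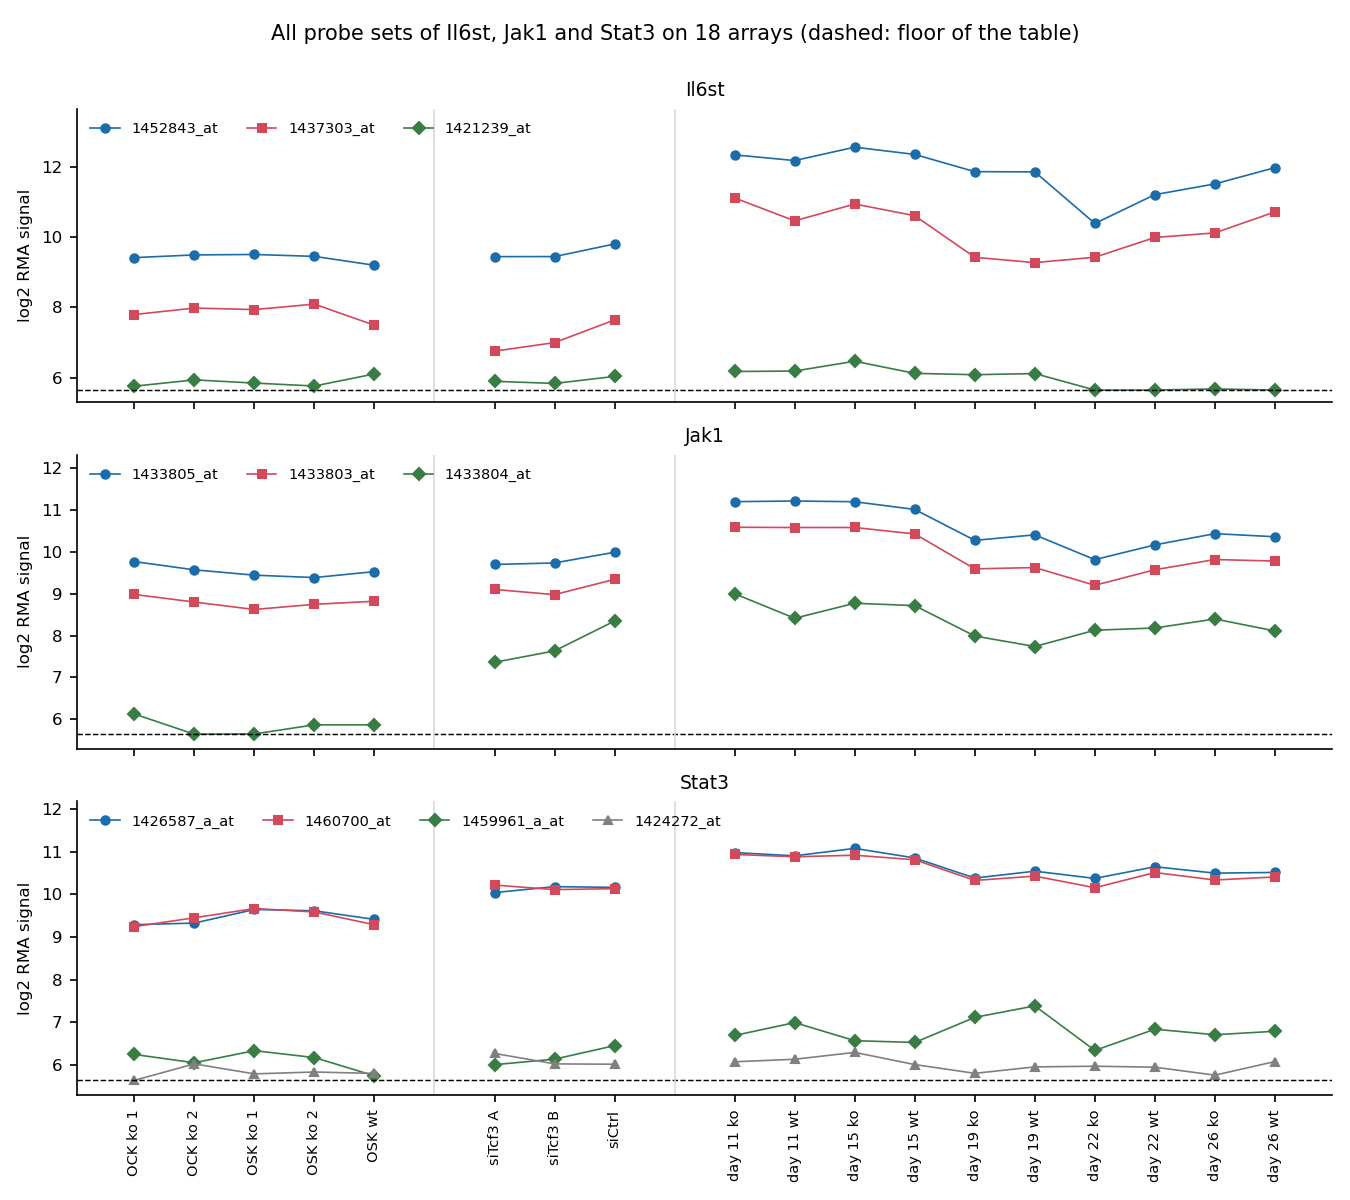
Log2 RMA signal (vertical axis) of every probe set of Il6st, Jak1 and Stat3 on the 18 arrays (horizontal axis), with the floor of 5.64 as a dashed line; lines only join arrays of a state, and heights of different probe sets cannot be compared. Jak1 1433804_at lies at or near the floor in the iPSC clones (5.64 to 6.13) and not in the partial clone (7.36 to 8.35).

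The order of the groups by the means of the shown probe sets differed between genes. For Lif, Lifr, Il6st, Jak1 and Stat3 the culture groups stood highest, ko and wt overlapping in each. For Stat3, partial clone siCtrl and siTcf3 came next and overlapped, then OSK ko, OSK wt and OCK ko clones, which did not overlap. For Il6st, partial clone siCtrl came after the cultures, and the OSK ko clones, OCK ko clones and siTcf3 arrays that followed overlapped in turn. For Lifr the cultures were followed by OSK ko clones, OCK ko clones, the OSK wt clone and the partial clone. For Socs3 the OSK ko clones stood highest, and all culture and iPSC groups overlapped their neighbours in the order, with the partial clone last.

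Within the cultures, Jak1 and Stat3 fell with time, and no member probe set rose. In the ko cultures Jak1 1433805_at had 11.20, 11.20, 10.27, 9.81 and 10.43 on days 11, 15, 19, 22 and 26, and in the wt cultures 11.21, 11.01, 10.40, 10.17 and 10.36. Days 11 and 15 were above the later days in both genotypes, with the lowest value on day 22. The mean slope was -0.07 ± 0.02 log2 per day (limma, adjusted p = 0.0218). Stat3 1426587_a_at had 10.98, 11.07, 10.38, 10.37 and 10.49 in ko and 10.90, 10.85, 10.54, 10.64 and 10.51 in wt, a slope of -0.04 ± 0.01 (adjusted p = 0.0387). In all, 6 of 15 probe sets passed, each lower with time, against 30.5% of all probe sets tested, 15.4% as lower. The other 4 were Jak1 1433803_at, Stat3 1460700_at, Il6st 1421239_at and Lifr 1425107_a_at. The median slope was -0.0415 log2 per day over the members and -0.000334 over all probe sets. None of the 6 passed without day 11, without day 15, with limma's plain prior or when the line was fitted through the day means.

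Il6st 1452843_at had 12.33, 12.55, 11.86, 10.38 and 11.51 in ko cultures and 12.17, 12.35, 11.85, 11.20 and 11.97 in wt cultures over the same days. Its slope of -0.07 ± 0.03 did not pass (limma, adjusted p = 0.101), but did without day 26 (-0.13, adjusted p = 0.0303). By the shown probe sets, the lowest Il6st, Jak1, Lifr, Stat3 and Socs3 values among cultures were all those of the ko culture of day 22. That array also had the lowest mean of the fibroblast markers among cultures, 11.86, and of the macrophage markers, 6.55. Over the days 4 of 7 fibroblast markers and 4 of 7 macrophage markers fell, 5 of 8 pluripotency markers rose and 4 of 5 neural markers rose; their part in the members' slopes was not tested. Of all probe sets 15.1% rose and 15.4% fell, and no probe set of the array passed without day 11. Lifr 1454984_at, Lif and Socs3 had slopes of -0.030 ± 0.020, -0.003 ± 0.011 and -0.022 ± 0.013, none of which passed.

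Loss of Tcf3 gave no call for any member in the cultures. In a fit of the 10 cultures that took the day as a block, 0 of 15 probe sets passed (limma, 1 at an unadjusted p under 0.05, Stat3 1459961_a_at), and 0% of all 24945 probe sets tested passed (903 at an unadjusted p under 0.05). Il6st differed by -0.18 ± 0.16, with a 95% interval of -0.55 to 0.19. By day, ko minus wt was 0.16, 0.21, 0.01, -0.82 and -0.46 for Il6st, and so higher in ko on the first 3 days and lower on the last 2. Lif differed by 0.12 ± 0.07, and Lifr, Jak1, Stat3 and Socs3 by -0.05 ± 0.11, -0.05 ± 0.09, -0.03 ± 0.08 and -0.03 ± 0.10. The slopes of ko and wt cultures did not differ by test for any member, with 0 of 15 (0 at an unadjusted p under 0.05) and 0% of all probe sets passing, 371 of them at an unadjusted p under 0.05. With the day as a block in that fit 0 of 15 passed as well, with 3 at an unadjusted p under 0.05 (Il6st 1452843_at, Il6st 1437303_at and Socs3) and 1998 of all probe sets. Neural markers averaged 8.08 in the ko and 7.87 in the wt culture on day 22, and 6.23 in the ko and 10.1 in the wt culture on day 26. What these have to do with the members was not tested.

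In the OSK iPSC clones no member passed between ko and wt, with 0 of 15 (5 at an unadjusted p under 0.05) and 0.31% of all 22877 probe sets tested (2532 at an unadjusted p under 0.05). Lifr had 9.56 and 9.51 in the ko clones, against 9.05 in the wt clone, the log2 difference being 0.49 ± 0.12 (limma, adjusted p = 0.193). Both ko clones were above the wt clone for Il6st 1437303_at too, at 7.93 and 8.09, against 7.49 in the wt clone (0.52 ± 0.16, adjusted p = 0.284). For the dimmer Il6st 1421239_at both were below it (-0.30 ± 0.13, adjusted p = 0.465). Stat3 differed by 0.22 ± 0.12, Socs3 by 0.38 ± 0.27, Lif by -0.26 ± 0.14 and Jak1 by -0.11 ± 0.13. There was 1 wt clone, so its own spread is taken from the other groups of the fit.

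Knockdown of Tcf3 in the partial clone also gave no member call, with 0 of 15 (4 at an unadjusted p under 0.05) and 0.0639% of all 23468 probe sets tested (2757 at an unadjusted p under 0.05). Il6st 1437303_at was lower with both siRNAs, at 6.75 and 6.99, against 7.64 with siCtrl (log2 difference -0.77 ± 0.16, limma adjusted p = 0.176). Jak1 1433804_at was 7.36 and 7.63 with siTcf3, against 8.35 with siCtrl (-0.85 ± 0.23, adjusted p = 0.256). The shown probe sets of Il6st and Jak1 differed by -0.36 ± 0.11 and -0.27 ± 0.13, while those of Lifr, Stat3 and Socs3 differed by -0.03 ± 0.12, -0.05 ± 0.12 and -0.10 ± 0.27. Fibroblast markers averaged 9.15 and 9.28 with siTcf3 and 9.61 with siCtrl, and their part in these values was not tested. The Tcf3 effect in OSK iPSC clones minus that in the partial clone was tested as an interaction added after the values had been seen. It passed for 0 of 15 members (4 at an unadjusted p under 0.05) and 0% of all probe sets, 2686 of them at an unadjusted p under 0.05.

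**Figure D4:**
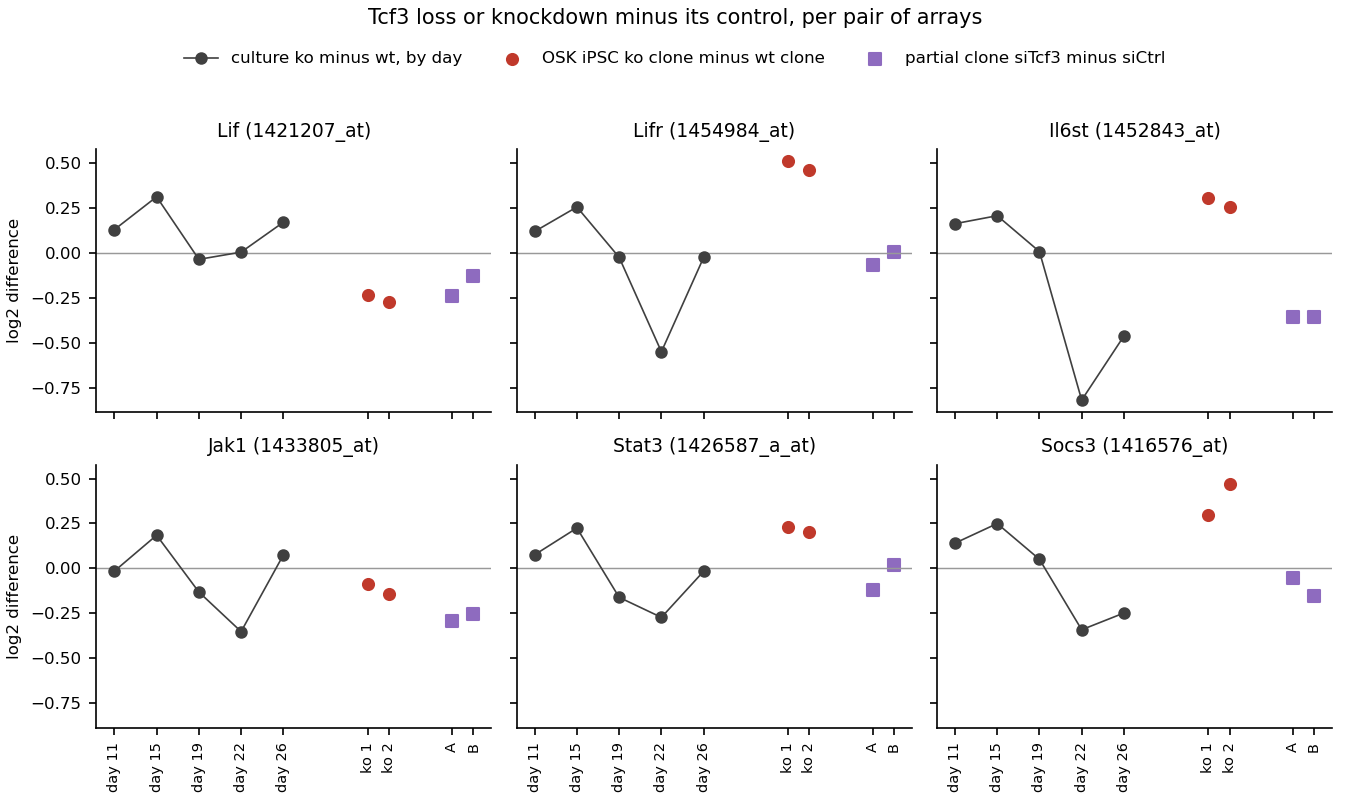
Log2 difference (vertical axis) between single arrays for the shown probe set of each member: ko minus wt culture by day (black), each OSK ko clone minus the OSK wt clone (red) and each siTcf3 minus siCtrl in the partial clone (purple squares). Points of a colour after day 26 share 1 control array, and Il6st is at 0.31 and 0.25 in the OSK clones and at -0.36 for both siRNAs.

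Among ko iPSC clones the factor set gave no member call, with OCK minus OSK passing for 0 of 15 (3 at an unadjusted p under 0.05) and 7.57% of all 23398 probe sets tested (5810 at an unadjusted p under 0.05). Stat3 had 9.29 and 9.33 in OCK clones, against 9.64 and 9.61 in OSK clones, groups that do not overlap (log2 difference -0.32 ± 0.10, limma adjusted p = 0.101). Jak1 1433805_at had 9.77 and 9.57 in OCK clones, against 9.44 and 9.38 in OSK clones (0.25 ± 0.10, limma adjusted p = 0.199). Without OCK clone 2 the Jak1 difference was 0.35. Socs3 had 9.997 and 9.32 in OCK clones, against 9.93 and 10.10 in OSK clones. The value of OCK clone 1 lies between those of the OSK clones, and that of OCK clone 2 lies below both. Without OCK clone 1 the Socs3 difference was -0.69. In both fits without an OCK clone, the lone OCK array left is taken to vary like the other groups of the fit. Il6st and Lifr differed by -0.02 ± 0.09 and -0.10 ± 0.10.

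Of the other listed genes of the pathway, 51 were analysed through a probe set of their own. Between iPSC clones and cultures 17 of 51 were higher and 23 lower, where 35.6% of all probe sets passed as higher and 26.7% as lower. With 1 probe set per gene, as for the listed genes, 5500 of 14064 genes passed as higher and 4114 as lower. The counts by list below have the same backgrounds. Among ligands 2 of 5 fell, Il6 (-2.76, a bound since every iPSC array was at the floor) and Clcf1 (-0.52 ± 0.11, with 4 of 5 iPSC arrays at the floor). Among receptors 2 of 4 fell, Osmr, which pairs with gp130 for oncostatin M (-5.64 ± 0.27), and Il6ra, the interleukin 6 receptor (-1.78 ± 0.22). With 2 and 3 of the 5 iPSC arrays at the floor, both are lower limits of the size. Osmr had a median of 5.92 in iPSC clones and 12.002 and 11.95 in ko and wt cultures. In the partial clone its median was 10.845, a difference of -0.95 ± 0.33 from cultures (limma, adjusted p = 0.0282), while Cntfr, the receptor for ciliary neurotrophic factor, was higher (0.91 ± 0.21).

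Of 8 other kinases and Stat factors, 3 were higher and 4 lower in iPSC clones than in cultures. The kinase Jak2 (-2.25 ± 0.22) and Stat5b (-1.06 ± 0.13) fell, whereas Jak3 (1.12 ± 0.11) and Stat4 (1.89, a bound since every culture was at the floor) rose. Of 16 inhibitors 7 rose and 6 fell, led by Socs2 (2.65 ± 0.44), Pias2 (2.51 ± 0.11) and the phosphatase Ptpn6 (1.93 ± 0.32, with 2 of 10 cultures at the floor), with Ptpn11, the phosphatase Shp2 that links gp130 to the Ras pathway, at -0.92 ± 0.11. In the partial clone Socs2 was also higher than in cultures (2.25 ± 0.53), as was Cish (0.95 ± 0.10), and Socs5 was lower (-0.97 ± 0.12).

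Of 18 genes listed as Stat3 targets, 7 rose and 9 fell in iPSC clones relative to cultures. Those with the highest fitted differences, Tfcp2l1 (6.002 ± 0.418), Sall4 (4.56 ± 0.61) and Klf5 (4.17 ± 0.40), are transcription factors of pluripotent cells. Tfcp2l1 was at the floor on 4 of the 10 cultures and Sall4 on 3, so their differences are lower limits and the order of the 3 is not settled. Cebpd, an acute-phase transcription factor, fell by 4.19 on the log2 scale. Tfcp2l1 had a median of 12.38 in iPSC clones, 6.93 in the partial clone and 6.42 and 6.05 in ko and wt cultures. Between the partial clone and cultures 22.9% of all probe sets rose and 17.5% fell. With 1 probe set per gene 3331 of 13736 genes rose there and 3029 fell. Of the 18 listed targets 1 rose in the partial clone, Klf5 (2.46 ± 0.48). Another 6 fell, among them Icam1 (-1.73 ± 0.24), Cebpd (-1.59 ± 0.29) and Bcl6 (-1.49 ± 0.26). Klf4 and Myc are on this list and are also reprogramming factors, and whether their probe sets read a transgene is not known here. Between ko and wt cultures 0 of 50 genes tested on the 5 lists passed (limma, 3 at an unadjusted p under 0.05), between OSK ko and wt clones 0 of 48 (11) and with siTcf3 0 of 46 (4).

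**Figure D5:**
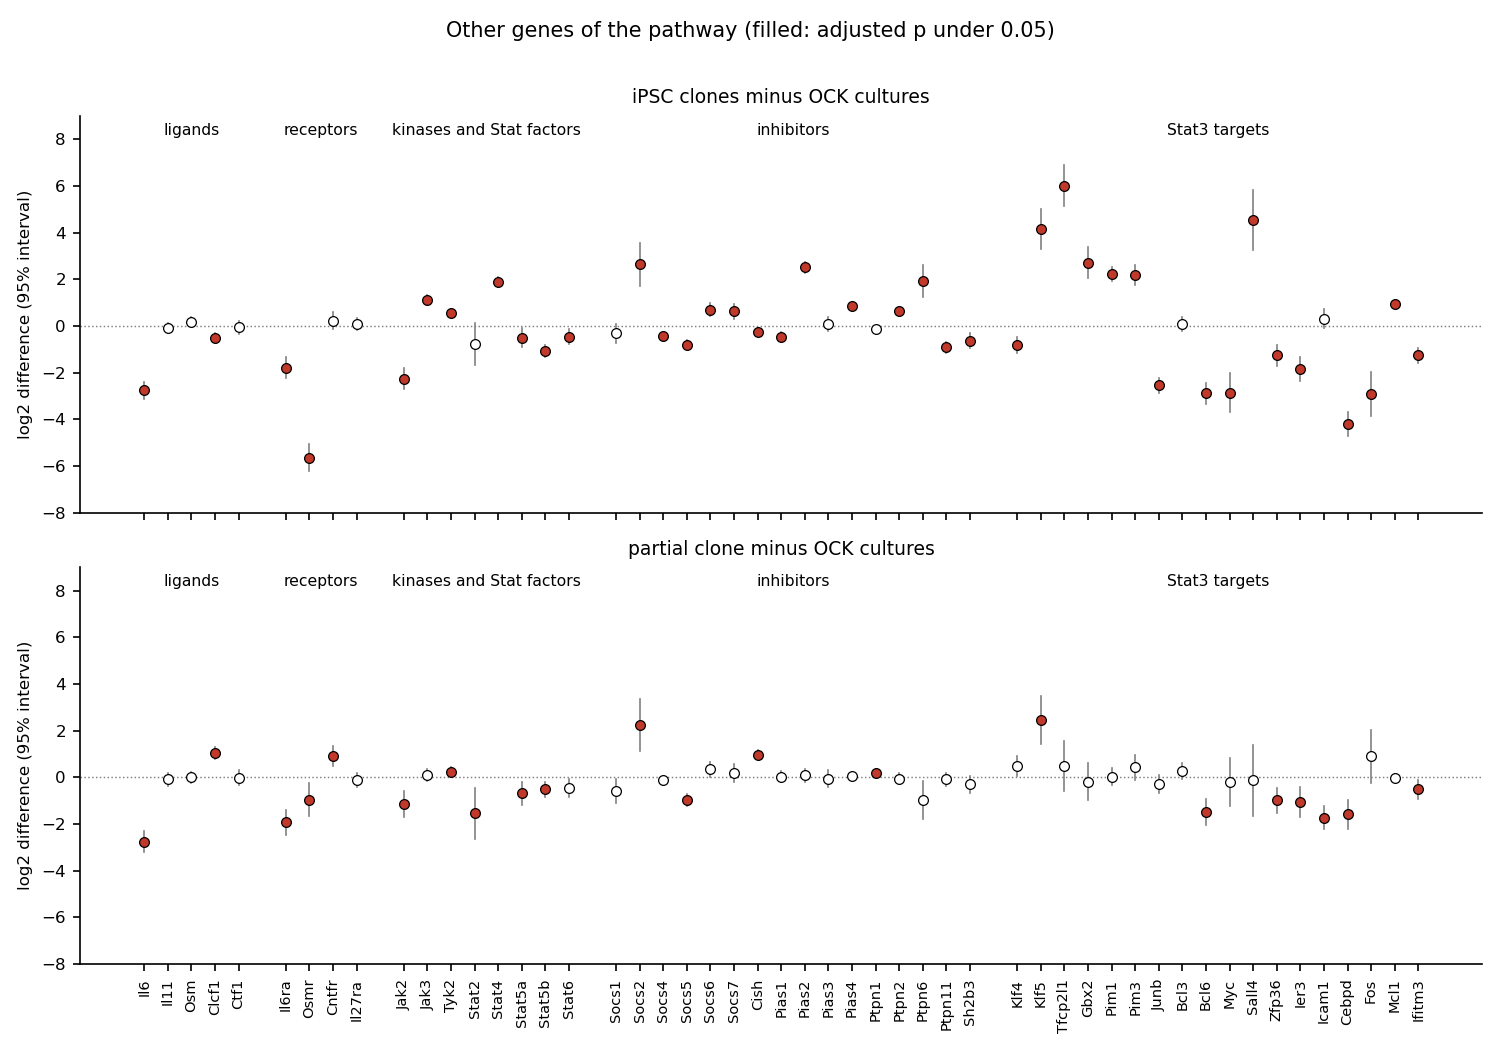
Log2 difference (vertical axis) with its 95% interval for the listed genes of the pathway (horizontal axis, grouped by list), in iPSC clones minus cultures (upper panel) and in the partial clone minus cultures (lower panel); filled points have an adjusted p under 0.05 over all probe sets. Osmr lies at -5.64 in the upper panel and at -0.95 in the lower, and Tfcp2l1 at 6.002 in the upper.

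With 1 probe set per gene 2411 of 13428 genes rose over the culture days and 2510 fell. Of the listed genes 10 of 50 rose and 14 fell, against 15.1% and 15.4% of all probe sets. None of these calls held without day 11, where 0 of 24764 probe sets passed (limma, 6604 at an unadjusted p under 0.05), and 94 of all probe sets passed with a line through the day means. Socs2 rose by 0.18 ± 0.03 log2 per day, and Sall4 by 0.26 ± 0.04, Klf5 by 0.16 ± 0.03 and Tfcp2l1 by 0.14 ± 0.02. Stat2 (-0.18 ± 0.03 per day), Il6ra (-0.09 ± 0.02) and Jak2 (-0.07 ± 0.02) fell. Between iPSC clones and the partial clone 15 of 49 were higher and 17 lower, against 25.6% and 21.4% of all probe sets. With 1 probe set per gene 4011 of 13571 genes were higher and 2950 lower. Tfcp2l1 differed by 5.52 ± 0.56 and Osmr by -4.69 ± 0.37, the last a lower limit of the size. Among ko clones 4 of 48 passed between OCK and OSK, near the share of all probe sets. With 1 probe set per gene 1377 of 12905 genes passed there. Ier3 (-1.34 ± 0.22, limma adjusted p = 0.0204) and Stat5a (-0.79 ± 0.15) were lower in OCK clones, and Ifitm3 (0.72 ± 0.13) and Socs6 (0.46 ± 0.10) higher. Without OSK clone 1 or 2, 10 or 4 probe sets of the whole array passed.

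Across the 18 arrays the members followed each other to different degrees. Pearson's r was 0.93 between Il6st and Jak1, 0.90 between Il6st and Stat3 and 0.89 between Jak1 and Stat3, but 0.23 between Stat3 and Socs3. Lifr and Socs3 had 0.75. The arrays fall into 3 states. With the mean of each state taken off, r was 0.85 between Il6st and Jak1, 0.68 between Il6st and Stat3, 0.76 between Jak1 and Stat3 and 0.61 between Lifr and Socs3, while that between Stat3 and Socs3 was 0.73. The pairs with Lif were negative on that scale (-0.37 to -0.15). All are descriptions, and arrays of the same day or clone share their source. Among 8455 other genes, the 3 most alike to Il6st were Adamts15 (0.99), Pik3r1 (0.99) and Gdf10 (0.99), to Stat3 Klhl5 (0.99), Kdelr1 (0.98) and Golim4 (0.98), and to Jak1 Qsox1 (0.98), Slc41a2 (0.98) and Srr (0.98). For Lifr they were Crebl2, Fbln1 and Txndc16 (0.96 each), for Lif Cyba, Zfp36 and Krt17 (0.93, 0.93 and 0.92) and for Socs3 Lrig2, Fndc3a and Usp2 (0.91, 0.90 and 0.88).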

How the data were processed

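Expression was measured on 18 Affymetrix arrays, 1 per sample. The deposited values are log2 signals that the authors made with RMA, per the submitters' processing notes; the sources used here give no version or settings for it and no genome build of the probes. The floor at 5.64 is seen in the values, and no label names it. The number of arrays limits the precision.

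Probe sets were named from the platform annotation: 31076 had 1 gene symbol, 636 several and 8796 none. Groups, days and clone numbers came from the labels. No arrays held identical values. All 40508 probe sets were fitted with limma 3.58.1 (R 4.3.3), with Benjamini-Hochberg adjustment over those tested and a threshold of 0.05. Cultures were fitted with day as a block, or with a line per genotype; the 8 clone arrays with a mean per group; and all 18 arrays with a mean per state. The prior variance came from probe sets above the floor on every array of a fit, any probe set that was floored on some array got that variance or more, and probe sets at the floor on all compared arrays were not tested. The code was tested on simulated data. A mean ± SD is over arrays, and a difference has its SE.

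Genes named in the text are the members, the 3 genes most alike to each (Pearson r, above the floor on at least 9 arrays, SD of at least 0.3) and, per comparison, up to 4 genes of each pathway list that passed. The members and lists were chosen with earlier results of these data known. Clone numbers 1 and 2 occur in both ko iPSC groups; the changes from clone 1 to 2 correlated at -0.09 over 20122 probe sets, so the numbers were not taken as pairs. Alternatives were the plain limma prior, quantile normalization, median centring, a filter on floored probe sets, 1 value per gene, a replicate block, ko arrays or late cultures alone, a line through day means and leaving out each array or day.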

Additional observations from a re-analysis of the deposited data

Results flagged for a closer look

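A Lifr probe set had a lone high array: 1450207_at was 6.18 in the wt culture of day 15, against 5.78 at the next highest and 5.64 at the lowest of the 5 wt cultures. It was the only one found among 45 groups of arrays examined by Dixon's test, where chance marks about 1 in 20. The wt cultures of days 22 and 26 were at the floor for this probe set, so that rate need not hold for it. For 4 of 15 member probe sets both OSK ko clones were above the OSK wt clone while both siTcf3 arrays were below siCtrl. How many of all probe sets have such a pattern was not counted, so the 4 are not a result about the members. The difference between these Tcf3 effects, tested as an interaction in limma, was 0.64 for Il6st 1452843_at (adjusted p = 0.271), 1.29 for Il6st 1437303_at (0.196), 0.89 for Stat3 1459961_a_at (0.271) and 0.48 for Socs3 (0.728), and none passed. Each of the 2 effects rests on 1 control array.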

How the results depend on the processing

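Of 738 values of single genes under another setting, 693 kept their direction and side of the threshold, 15 lost a call, 4 gained one and 26 changed sign, none of the last with a call on either side. The 6 probe sets of 4 genes that fell per day (2 genes by their shown probe sets) became 0 (0 genes) with the plain limma prior and with a line through day means, and 0 to 7 probe sets (0 to 3 genes) when a day was left out. Of all probe sets, 7616 passed per day, 94 with a line through day means and 0 without day 11. Leaving out an array gave 0 to 1 members for OCK minus OSK ko clones and 6 to 12, with days left out too, for the partial clone minus cultures. The replicate block for the clone numbers gave 0 members and 1622 of all probe sets for OCK minus OSK, against 1771 without it; without single clones that count ran from 4 to 4777. Over the settings, OSK ko minus wt gave between 0 and 209 of all probe sets, and siTcf3 minus siCtrl between 0 and 497. Counts of probe sets have no value where 1 value stands for a gene. Leaving out days of the cultures was added for the state comparisons after the data had been seen, as was the interaction.

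Signs changed for Jak1 in ko minus wt cultures with the mean of probe sets (0.0454), for Lifr with siTcf3 under quantile normalization (0.062) and with the mean of probe sets (0.0923), for Socs3 in iPSC clones minus cultures under quantile normalization (-0.0566) and for Il6st in iPSC clones minus the partial clone with the mean of probe sets (0.178); the cause was not tested. With a day left out, ko minus wt ranged from -0.121 to 0.0809 for Lifr, -0.106 to 0.0279 for Jak1, -0.0938 to 0.0306 for Stat3 and -0.0999 to 0.0479 for Socs3. The slope of Lif ranged from -0.00965 to 0.0166, and slope differences from -0.0196 to 0.0002996 for Lif and -0.0346 to 0.000387 for Jak1. With an array left out, OCK minus OSK ranged from -0.0432 to 0.169 for Lif and -0.0623 to 0.0144 for Il6st, siTcf3 minus siCtrl from -0.0655 to 0.00411 for Lifr and -0.122 to 0.0165 for Stat3, Socs3 in iPSC clones minus cultures from -0.0566 to 0.138, and Lif in iPSC clones minus the partial clone from -0.0342 to 0.0873. The 3 residual degrees of freedom among clones and the lone control arrays limit what those comparisons can show.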
